A study of Homo sapiens with 2 samples.

Results

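The chromosome 1p35 cluster is a stretch of the plus strand of chromosome 1 that runs from KPNA6 to EIF3I. Its members are the SOX2 PAR-CLIP sites that lie wholly between 32573001 and 32698000 (hg19, positions counted from 1) on the plus strand, a window of 125 kb. There were 81 such sites among the 72794 sites of both lists: 17 of 16964 in replicate 1 and 64 of 55830 in replicate 2. The window was chosen by its numbers of sites on this strand in the lists, so those numbers are given as a description and nothing is supported with them.

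PAR-CLIP records where a protein touches RNA: cells take up 4-thiouridine, long-wave ultraviolet light ties that base to nearby protein, and the RNA pulled down with the protein is sequenced. Both libraries belong to 1 group and were described as independent experiments. HEK293T cells, an established human embryonic kidney line, carried a transfected plasmid for FLAG-tagged SOX2. They received 0.2 mM 4-thiouridine for 16 hours, starting 24 hours after transfection, and 0.4 J/cm2 of light at 365 nm before RNase T1 digestion and FLAG pull-down. SOX2 thus came from a transient transfection in cells that are not pluripotent. No control library is used here, so neither background crosslinking nor the abundance of the RNAs was measured.

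SOX2, a transcription factor, binds DNA through its HMG-box and serves in reprogramming somatic cells to pluripotency. The window holds 6 protein-coding genes on the plus strand, in the order KPNA6, TXLNA, CCDC28B, IQCC, DCDC2B and EIF3I (order and strand from the GENCODE 29 annotation of GRCh38). KPNA6 encodes an importin alpha, an adaptor that carries proteins with a nuclear localisation signal into the nucleus. TXLNA encodes alpha-taxilin, a coiled-coil protein that binds syntaxins and takes part in vesicle traffic. CCDC28B encodes a coiled-coil protein linked to cilia and to Bardet-Biedl syndrome. IQCC encodes a protein with an IQ motif, and DCDC2B one with a doublecortin domain, a fold known for binding microtubules. EIF3I encodes a WD-repeat subunit of eIF3, the complex that helps the small ribosomal subunit onto mRNA. With the strand column taken as the strand of the RNA, a plus-strand site has the sense of these genes, whether the RNA was spliced or not. The annotation at hand is on another build than the site lists, so sites are given by position and none is assigned to a gene, exon, intron or UTR.

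The 17 sites of replicate 1 and 64 of replicate 2 stood beside 4 and 6 sites on the minus strand of the same window. The plus-strand share was 81.0% (95% Wilson interval 60 to 92.3) in replicate 1 and 91.4% (82.5 to 96.0) in replicate 2, or 86.2% ± 7.41 (SD, n = 2). In the whole lists it was 51.5% and 51.9%. The strand was part of the rule that chose the window, so the share is a description and nothing is read from the difference. When each strand of the nuclear chromosomes was cut into tiles of 125 kb from the chromosome start, tiles with a site held a median of 1 site in replicate 1 and 3 in replicate 2. As many sites as in this window or more were held by 4 of 7624 such tiles in replicate 1 and 9 of 9997 in replicate 2. Tiles that cover parts of the window are included. The window was chosen for its number of sites and the tiles were not placed around sites, so nothing is read from these counts. The plus-strand stretch of equal length before the window held 7 and 47 sites, and that after it held 1 and 12.

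No plus-strand site crossed an edge of the window, but replicate 2 had further sites shortly before it. Widening the window by 10 kb on each side took the plus-strand sites of replicate 2 from 64 to 71. All of the added ones lay before the window, while replicate 1 stayed at 17. In replicate 1 the last plus-strand site before the window ended at 32542898, 30.1 kb outside it, with a score of 79, and the first after it began at 32799124 with a score of 296. In replicate 2 the nearest sites outside lay 4.72 kb before the window, with a score of 17, and 70.3 kb after it, with a score of 10. The first and last members were at 32636376 and 32697059 in replicate 1, with scores of 341 and 41. In replicate 2 the first began at 32577627 with a score of 24, and the last ended at 32696807 with a score of 45.

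The median member scored above the median of its list, but members ranged widely and the highest of them fell far short of the highest scores of the lists. The score is the whole number deposited with each site, and no source used here says what it counts. In replicate 1 the scores of members ranged from 11 to 341 with a median of 52 (quartiles 28 and 71), against a median of 26 (15 and 58) over the list. In replicate 2 they ranged from 5 to 365 with a median of 35.5 (18.75 and 83.75), against 19 (12 and 37). Relative to the median of its list, a member scored as high or higher in 13 of 17 cases (76.5%, 95% Wilson interval 52.7 to 90.4) in replicate 1 and in 48 of 64 (75%, 63.2 to 84.0) in replicate 2, beside 51.4% and 52.1% of all sites. This difference was not tested, as sites of one RNA are not independent and the window was chosen for its number of sites. Scores of at least 100 were held by 3 members (17.6%, beside 14.8% of the list) and by 13 members (20.3%, beside 7.34%). No member reached a score of 1000, which 268 and 274 sites of the lists did. The members summed to 1205 and 4093, or 0.0225% and 0.0788% of the score sums of the lists.

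**Figure D1:**
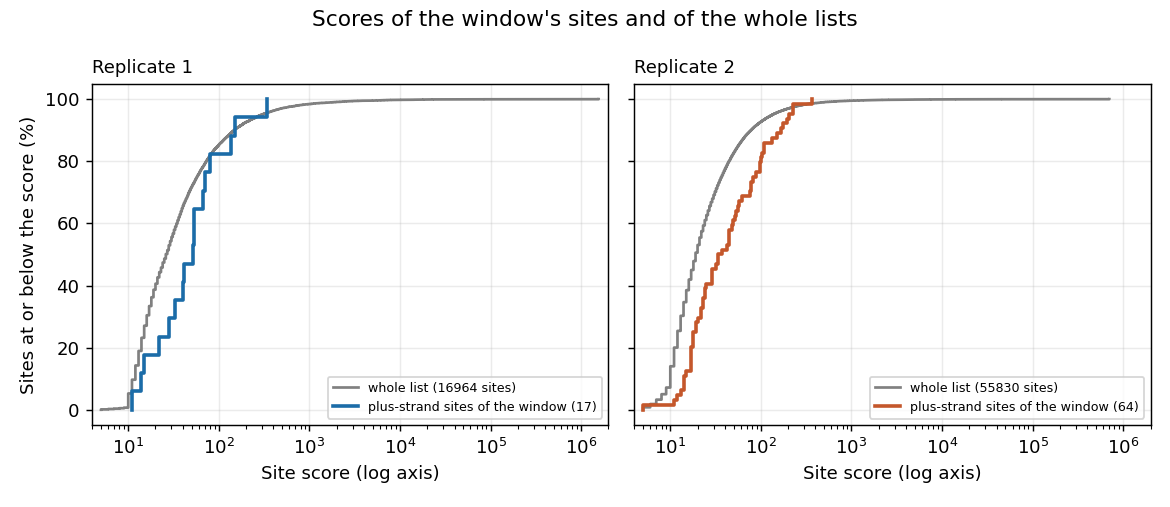
Cumulative share of sites (vertical axis, percent) at or below a given score (horizontal log axis) for the window's plus-strand sites (coloured) and the whole list (grey), one panel per replicate. The coloured lines lie to the right of the grey ones around the medians (52 against 26, and 35.5 against 19) and end at scores of 341 and 365, far below the highest scores of the lists.

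Members measured 14 to 29 nt in replicate 1 and 14 to 34 nt in replicate 2, with medians of 16 and 17 nt, equal to the medians of the whole lists. Those of 20 nt or longer numbered 3 (17.6%, beside 14.2% of the list) and 21 (32.8%, beside 25.5%). In replicate 2, 44 of 63 gaps between neighbouring members were under 1000 nt and 14 were under 100 nt, with a median gap of 239 nt. In replicate 1, 4 of 16 gaps were under 1000 nt and the median gap was 1601.5 nt. The deposited site names give some neighbours a common stem. In replicate 2, 19 members (29.7%) in 8 groups had such a name, beside 11.4% of the list, while none did in replicate 1, beside 2.50% of that list. No source used here says what the stem stands for. The window was chosen for many sites, replicate 2 has more of them, and gaps over the whole lists were not computed. Nothing is therefore read from the gaps or the stems.

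Along the window the sites were unevenly placed. In the first 60 kb, replicate 1 had no member and replicate 2 had 6 (9.38% of its members), with scores that summed to 368. Those 6 sites scored 24 at 32577627, 11 at 32581118, 19 at 32593790, 149 at 32623012, 89 at 32627582 and 76 at 32628006. The longest stretch without a member in replicate 2, 29207 nt, lay between 32593804 and 32623012. KPNA6 is the first gene of the window, but these sites were not assigned to it.

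**Figure D2:**
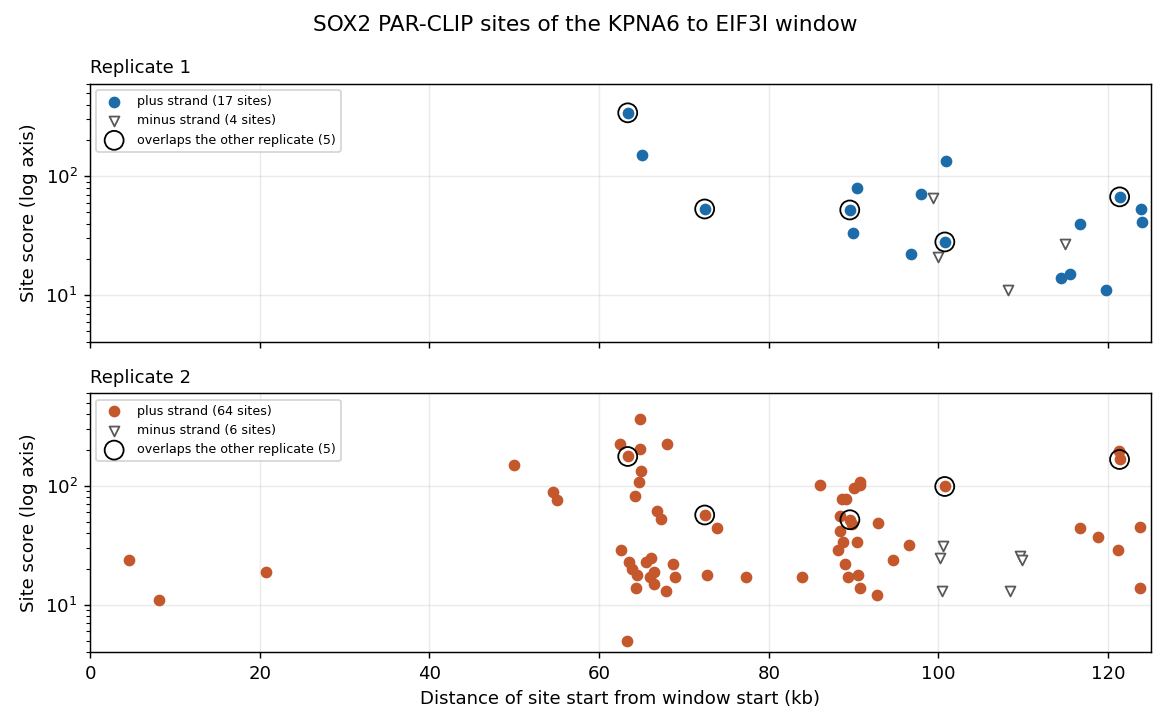
Score of each site (vertical log axis) against the distance of its start from the window start (horizontal axis, kb) in replicate 1 (top) and replicate 2 (bottom); filled circles are plus-strand sites, open triangles minus-strand sites, and black rings mark the 5 sites per replicate that overlap the other list. Replicate 1 has no plus-strand site in the first 60 kb, and both replicates have their strongest ones between 60 and 70 kb.

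Divided at gaps of more than 3 kb between members of either list, a gap set after the positions were seen, the members fell into 10 runs. The run with the most members of replicate 2 went from 32635511 to 32641986. It spans 6.48 kb and held 24 members of replicate 2 (37.5%) and 2 of replicate 1 (11.8%). By score it carried 46.3% of the member sum in replicate 2 and 40.7% in replicate 1, so the few sites of replicate 1 there were its strong ones. Those scored 341, at 32636376 to 32636391, and 150, at 32638036 to 32638053. They were the highest and second-highest of replicate 1 in the window and exceeded 95.6% and 90.2% of all sites of that list.

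The strongest member of replicate 2 lay in the same run, at 32637815 to 32637842, with a score of 365, above 98.6% of its list. It belonged to 4 sites with a common name stem that spanned 199 nt from 32637743 to 32637941. The others of that group, in order along the strand, scored 107, 205 and 133, and the 4 together carried 19.8% of the member score sum of replicate 2. No replicate 1 site overlapped the group, although the replicate 1 site with a score of 150 began 94 nt beyond its end. Also in this run were replicate 2 sites at 32640960 to 32640975 and 32635511 to 32635526, with scores of 227 and 224. The former had no replicate 1 site within 2906 nt, and the latter none within 849 nt.

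Between 32645445 and 32646922 a short run held 1 member of replicate 1 and 3 of replicate 2. A single replicate 2 site at 32650309, with a score of 17, stood alone after it. The next long run, from 32656964 to 32673886, covered 16.9 kb with 7 members of replicate 1 and 23 of replicate 2. These were 41.2% and 35.9% of the members, and they carried 34.9% and 28.4% of the member score. In replicate 1 the highest of them were 135 at 32673869, 79 at 32663454, 71 at 32670907 and 52 at 32662550. In replicate 2 the highest was 108, at 32663745 to 32663761, in a group of 3 sites with a common stem whose scores summed to 224.

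The last run, from 32687508 to 32697059, held 7 members in each replicate. This was 41.2% of the members of replicate 1 and 10.9% of those of replicate 2, with 20% and 13.0% of the member score. Its strongest replicate 2 sites were neighbours, at 32694329 to 32694342 with a score of 196 and at 32694353 to 32694369 with 167. In replicate 1 the strongest was 67, at 32694362 to 32694390, followed by 53 at 32696845 and 41 at 32697045. EIF3I is the last plus-strand gene of the window. Whether the share of members in this run differs between the replicates beyond chance was not tested, since sites of one RNA are not independent.

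Counted in 25 bins of 5 kb, members occupied 10 bins in replicate 1 and 16 in replicate 2, of which 9 were common to both, and 8 bins were empty in both. Across the bins, Spearman's rho of the site numbers was 0.63 and Pearson's r was 0.42. These are descriptions: bins share the RNAs, the sequence and the protocol, and many are empty. With the sum of scores per bin in place of the number of sites, rho was 0.74 and r was 0.87. The best-filled bin of replicate 2, from 32633001 to 32638000, held 13 sites with a score sum of 1402. It held 1 site in replicate 1, with the highest score sum of that replicate, 341. Pearson's r weighs such a bin heavily, and its value without this bin was not computed.

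**Figure D3:**
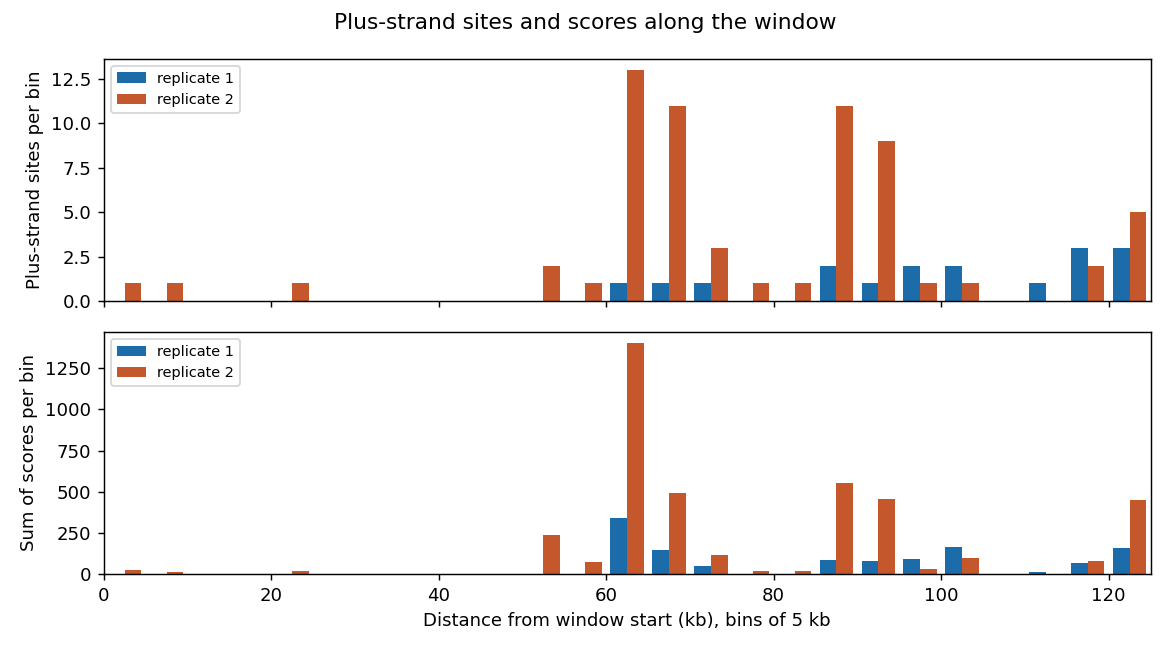
Number of plus-strand sites (top) and sum of their scores (bottom) in bins of 5 kb against the distance from the window start (kb), with replicate 1 in blue and replicate 2 in orange. Replicate 2 peaks at 13 sites and a score sum of 1402 between 60 and 65 kb, where replicate 1 has 1 site and its highest sum, 341.

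Sites were counted as shared where they overlapped one from the other list by 1 nt or more, strand matched. Of the members, 5 of 17 in replicate 1 (29.4%, 95% Wilson interval 13.3 to 53.1) and 5 of 64 in replicate 2 (7.81%, 3.38 to 17.0) were shared. Over the whole lists 21.3% and 6.5% of sites overlapped in this way, and both values lie within the intervals of the members. Whole-list shares weighted to the score classes of the members were 27.1% and 10.4%, also within those intervals. The intervals are wide and take sites as independent, which sites of one RNA are not, so lying within them is no test. The shared percentages stood near these background values and are no result about this stretch. On the minus strand of the window, 0 of 4 sites in replicate 1 and 0 of 6 in replicate 2 were shared, which allows shares of up to 49.0% and 39.0% (upper Wilson bounds).

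The first of the 5 pairs joined the strongest replicate 1 member, at 32636376 to 32636391 with a score of 341, to a replicate 2 site at 32636376 to 32636395 with a score of 177. Both began at the same base, the only pair to share an edge. In the second pair, a 26 nt site of replicate 1 at 32645445 to 32645470 enclosed the replicate 2 site at 32645450 to 32645467, and the scores were 53 and 57. These scores differed by 1.08-fold.

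The third pair shared a single base: the replicate 1 site ended and the replicate 2 site began at 32662563, and each scored 52. In the fourth, the replicate 1 site at 32673757 to 32673770 scored 28 while its partner in replicate 2, at 32673746 to 32673769, scored 99, the widest difference, 3.54-fold. In the fifth, a replicate 1 site at 32694362 to 32694390 with a score of 67 overlapped by 8 nt with a replicate 2 site at 32694353 to 32694369 with a score of 167. Replicate 2 was thus higher in 3 pairs, replicate 1 in 1, and 1 was level. The median log2 ratio of replicate 2 to replicate 1 score was 0.10, beside -0.21 over all 3636 pairs of the lists. With 1 value per library, no pair's difference was tested.

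**Figure D4:**
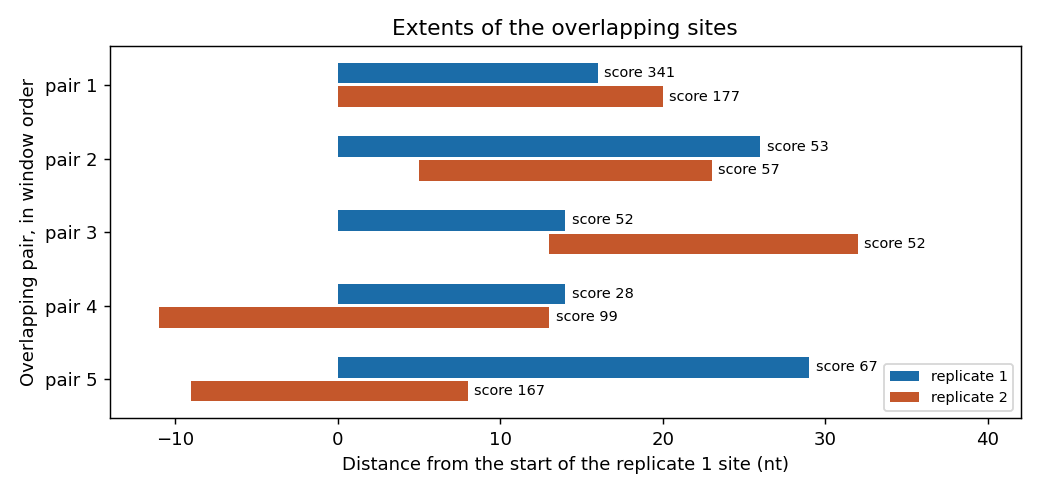
Extent of the overlapping sites in the 5 pairs, in window order, against the distance from the start of the replicate 1 site (nt), with each site's score printed beside its bar. Only the first pair shares a start, and the third overlaps by a single base.

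Some members without an overlap lay close to a site of the other list. Within 100 nt on the same strand, such a site was found for 6 of the 12 unshared members of replicate 1 (50%, beside 17.7% of all unshared sites of the list). In replicate 2 it was found for 8 of 59 (13.6%, beside 6.86%). In all, 11 of 17 members of replicate 1 (64.7%) lay within 100 nt of a replicate 2 site, beside 35.3% of the list, and 14 (82.4%) within 1000 nt, beside 53.3%. Seen from replicate 2, 13 of 64 members (20.3%) lay within 100 nt of a replicate 1 site, beside 12.9% of the list, and 39 (60.9%) within 1000 nt, beside 29.5%. The window was chosen for many sites in both lists, which brings sites of the lists close together, so nothing is read from these shares. The closest unshared neighbours were a replicate 1 site at 32689644 to 32689658, with a score of 40, and a replicate 2 site 17 nt further on at 32689676 to 32689696, with a score of 44.

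Several of the strongest members had no overlap. Among the 10 highest-scoring members, 4 were shared in replicate 1 and 2 in replicate 2. The unshared ones of replicate 2 included the sites with scores of 365, 227, 224, 205 and 196. These 10 carried 86.5% of the member score in replicate 1 and 47.7% in replicate 2, and the single strongest member carried 28.3% and 8.92%. By score class, all 5 shared members of replicate 2 scored at least 50: they were 3 of 12 members from 50 to below 100 and 2 of 13 from 100 to below 500. In the list these classes were shared at 13.5% and 25.8%. In replicate 1 the shared members were 1 of 5 from 20 to below 50, 3 of 6 from 50 to below 100 and 1 of 3 from 100 to below 500, where the list had 20.4%, 32.9% and 46.7%.

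The minus-strand sites of the window all began at 32672323 or later, beyond the plus-strand run between 60 and 70 kb. In the annotation 2 genes of this stretch are on the minus strand. They are AL049795.1, an antisense transcript that overlaps CCDC28B and IQCC, and TMEM234, which encodes a transmembrane protein and overlaps DCDC2B and EIF3I. The minus-strand sites formed 3 runs. From 32672323 to 32673558 there were 2 sites of replicate 1 and 3 of replicate 2, from 32681167 to 32682919 there were 1 and 3, and at 32687892 to 32687907 there was 1 site of replicate 1. They were not assigned to these genes, for the reason given above.

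Scores on the minus strand ranged from 11 to 65 in replicate 1 and from 13 to 31 in replicate 2, with medians of 24 and 24.5, against 52 and 35.5 on the plus strand. The highest were 65 at 32672323 and 27 at 32687892 in replicate 1. In replicate 2 they were 31 at 32673542, 26 at 32682586, 25 at 32673133 and 24 at 32682904. The first of these runs ended before the fourth pair of plus-strand sites began. In the interval between 32673886 and 32687508 the plus strand had no site in either list, while the minus strand had 1 in replicate 1 and 3 in replicate 2.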

How the data were processed

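For each of the 2 libraries the authors deposited 1 headerless table of sites (6 columns). Per the submitters' processing notes, bcl2fastq, Bowtie 1.1.2 and hg19 were used. The site caller, thresholds and handling of multiply matching reads were not given in the sources used here. As deposited by the authors, the score is a whole number, 5 or higher, and it summed to 5365592 and 5192778 over the lists. Whether it was scaled is not stated in the sources used here, and read depth is unknown. Wilson intervals cover counting error over sites only, and sites of one RNA are not independent. The lists reach 249168105 on chromosome 1, beyond the last gene of the GRCh38 annotation supplied (248937043), so that annotation gave only names, order and strand of genes. No sequence is printed for want of a genome on hg19. Overlaps, bins and runs were computed in Python 3.11.15 with pandas 2.3.3 and numpy 2.4.6, and correlations with scipy 1.17.1. Overlap detection was tested on simulated data. The members and settings were chosen with earlier results of these data known. Sites named are all overlapping pairs, the 10 highest-scoring members of each replicate and up to 5 minus-strand sites per replicate at or above the list median; others were chosen after their values were seen. No test between conditions was possible with 1 group.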

Additional observations from a re-analysis of the deposited data

How the results depend on the processing

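Members numbered 17 and 71 with the window widened by 10 kb on each side and 13 and 48 with scores at or above the list median. The plus-strand share was 86.6% in the wider window and 89.5% at or above the median, and it ranged from 81.0% to 91.4% between the replicates. The shared part of replicate 1 members was 17.6% when 50% of both sites had to overlap, 47.1% with gaps of up to 50 nt and 38.5% at or above the median, beside 16.5%, 31.5% and 30.4% of the whole list. For replicate 2 these values were 4.69%, 15.6% and 10.4%, beside 5.02%, 10.7% and 9.12%. When only the strongest replicate 2 sites, as many as replicate 1 has, were kept, 29.4% of replicate 1 members and 14.3% of replicate 2 members were shared, beside 15.1% of either list. All of these member shares lay within the intervals given for the members. They were computed from the same members or subsets of them, so this tests nothing. In bins of 10 kb, rho was 0.62 and r was 0.40; with score sums in bins of 5 kb they were 0.739 and 0.875. Runs numbered 15 with gaps of 2 kb and 6 with gaps of 5 kb, both chosen after seeing the data. Per nt of length, 13 and 45 members were at or above the list median; the plan named this for the median score, whose unit it changes. Leaving out either replicate leaves no overlap or agreement to compute. Without replicate 1 there were 64 members, the strongest with 8.92% of the member score, and a median score of 35.5. Without replicate 2 these values were 17, 28.3% and 52. No paired analysis was possible because there is a single group. Unknown depth limits what can be said of weak sites listed in 1 replicate.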
